A study of Mus musculus with 6 samples.

Results

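The genes of the kinetochore, the spindle assembly checkpoint, the condensed chromosome, the spindle and the cleavage furrow were read in mouse embryonic fibroblasts (MEF) at an early step of reprogramming, with and without the ubiquitin ligase gene Rnf20. A list of 47 gene symbols defined them, and all 47 were found by symbol among the 16982 genes of the count table. All 47 also passed the filter on low counts that left 13386 genes for testing. They were read in 9 structural groups, which are the chromosomal passenger complex (4 genes), the spindle assembly checkpoint (5), the NDC80 complex (4), CENP-A with the inner kinetochore (10), the outer kinetochore corona (2), the regulators of anaphase onset (4), condensin I with topoisomerase II (6), mitotic kinases with spindle assembly factors (7) and cytokinesis (5).

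RNA-seq was performed on 3 WT and 3 Rnf20-/- cultures on a C57BL/6 background, taken on day 3 after retroviruses had brought in the reprogramming factors C-MYC, KLF4, OCT4 and SOX2. According to the methods, the MEF carried floxed Rnf20 together with a ubiquitously expressed Cre recombinase that tamoxifen switches on, and hydroxytamoxifen in the medium deleted the gene. The labels give all 6 cultures as untreated, and it is not stated whether WT cells carried the same alleles or received the drug. The labels also do not say that replicates of a genotype came from separate embryos or cultures, so p-values measure only the spread between these samples. Among the WT libraries that spread may be technical, while the knockout libraries differed in a Y-linked gene, as given below. The methods replate the infected cells on growth-arrested MEF feeders, and it is not stated whether feeder RNA is part of these libraries.

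In mitosis, condensin and topoisomerase II compact and disentangle the chromosomes, and each centromere, marked by the histone H3 variant CENP-A, assembles a kinetochore that binds spindle microtubules through the NDC80 complex. Kinetochores without microtubules send out the checkpoint signal, made by BUB and MAD proteins and the kinase TTK, which keeps CDC20 from activating the anaphase-promoting complex (APC/C). When the signal stops, securin is destroyed, separase cuts cohesin, and the central spindle directs the cleavage of the cell. Most of these genes are known to be transcribed mainly in G2 and mitosis, so that in bulk RNA their level rises and falls with the share of dividing cells. In these bulk samples, fewer cells in mitosis and less RNA of these genes per cell cannot be told apart.

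The libraries held 20545442 to 21746898 counts, so that 3 counts, taken as the floor, equal 0.142 to 0.143 CPM (counts scaled to a common library size). Rnf20 itself stood at 107, 107 and 106 CPM in WT replicates 1 to 3 and had 18.7, 18.5 and 16.4 CPM in the knockout, which matches the genotype labels. The knockout libraries differed among themselves. A chi-square statistic of the counts, which is near 1 per gene when libraries differ by sampling only, was 6.04 to 8.92 between WT replicates, 8.57 between knockout replicates 1 and 2, while knockout replicate 3 gave 92.4 and 101 against the other two. Ddx3y, a gene of the Y chromosome, was at 0 in knockout replicates 1 and 3, and at 94.4 to 128 CPM elsewhere. Knockout replicates 1 and 3 therefore differ from all WT libraries in this respect too, and results are given with and without knockout replicate 3 and with a term for this gene.

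Genes of G2 and mitosis are known for a short promoter element, the cell cycle genes homology region (CHR, TTTGAA or TTTAAA), through which the MuvB complex acts, often beside CCAAT boxes bound by NF-Y. The 250 bases before each start site were searched for these letters on both strands in the promoters of RefSeq (GRCm38.p6), in which 42 of the 47 genes had 48 promoters. Of the 42 genes, 19 (45.2%) held a CHR, against 21.1% of 10069 genes tested that had a promoter and 28.1% of all 27025 genes with a promoter. CCAAT stood before 29 genes (69.05%), against 40.7% and 37.5%, and both stood in 1 promoter of 17 genes (40.5%), against 8.11% and 10.1%. The stretches around the CHR are shown for the 8 genes with the lowest log2 fold change among those that hold one, and for Bub3, which had the highest log2 fold change of all 47, to show that the element was present in genes far apart in the range. Capitals mark the CHR and CCAAT, each on either strand. TTCAAA is the CHR and ATTGG the CCAAT box as read when the element lies on the opposite strand. Stretches that overlap an annotated exon are kept to 30 bases or fewer.
Ncapd2 (chr6:125191692-125191721, minus strand): cagccgttgaggTTTGAAcagggaattgcg
Cenpf (chr1:189688220-189688315, minus strand): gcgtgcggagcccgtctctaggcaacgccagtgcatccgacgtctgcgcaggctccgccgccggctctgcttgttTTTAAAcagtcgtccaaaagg
Espl1 (chr15:102296254-102296283, plus strand): tcactagggataTTTGAAaggaggtgctgg
Ncapg (chr5:45669820-45669915, plus strand): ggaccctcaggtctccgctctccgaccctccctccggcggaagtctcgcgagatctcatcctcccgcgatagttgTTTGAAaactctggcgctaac
Cenpa (chr5:30666857-30666885, plus strand): acaaagttgggaTTTAAAagatgcggtgg
Top2a (chr11:99024192-99024287, minus strand): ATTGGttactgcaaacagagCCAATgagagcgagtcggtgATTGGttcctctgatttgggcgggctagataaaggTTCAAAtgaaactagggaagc
Ube2c (chr2:164769888-164769917, plus strand): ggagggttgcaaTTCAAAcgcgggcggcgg
Birc5 (chr11:117848987-117849037, plus strand): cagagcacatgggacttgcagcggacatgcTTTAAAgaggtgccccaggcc
Bub3 (chr7:131560315-131560344, plus strand): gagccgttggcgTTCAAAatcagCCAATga

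In Espl1, Ncapg, Cenpa, Top2a, Ube2c and Bub3 the first base of the element lay 17 to 43 bases before the start site of RefSeq. In Ncapd2, Cenpf and Birc5 it lay 123, 154 and 220 bases before that site. GENCODE places some gene starts elsewhere, so that the stretches of Cenpa and Bub3, among others, lie within its gene bounds. The promoters of Top2a and Ube2c each held 6 CCAAT boxes in the whole window. The median log2 fold change of the 19 genes with a CHR was -1.61, and that of the 23 genes without one was -1.51. The 11 genes with neither element, among them Nuf2 and Nusap1, had a median of -1.42. These matches describe letters in a window and are not measured binding.

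Messenger RNA of these genes was lower in Rnf20-/- cells across the whole list. This list and the further ones below were chosen with earlier results of these data known. The shares of all genes beside them are therefore a description and not a test of the lists. The fitted log2 fold change (knockout over WT) was negative for all 47 genes, against 50% of all genes, with a median of -1.53 against -0.00032 over all 13386 genes tested, and the middle 50% of the genes lay between -1.77 and -1.32. In all 47 genes every knockout library lay below every WT library, which was so for 28.2% of all genes tested. In edgeR (quasi-likelihood test, Benjamini-Hochberg adjustment over all genes) 46 fell at an adjusted p under 0.05 (0.00276 to 0.0364), against 16.6% of all genes, and 0 rose, against 16.4%. No gene of the list was higher at an unadjusted p under 0.05 either, and DESeq2 and edgeR's exact test also found 0, where 19.5% and 16.4% of all genes were higher. The knockout mean was less than 50% of the WT mean in 43 genes, which held for 6.68% of all genes tested. Together the 47 genes took 3154, 3075 and 3119 CPM in WT replicates 1 to 3 and 1451, 1301 and 645 CPM in knockout replicates 1 to 3.

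**Figure D1:**
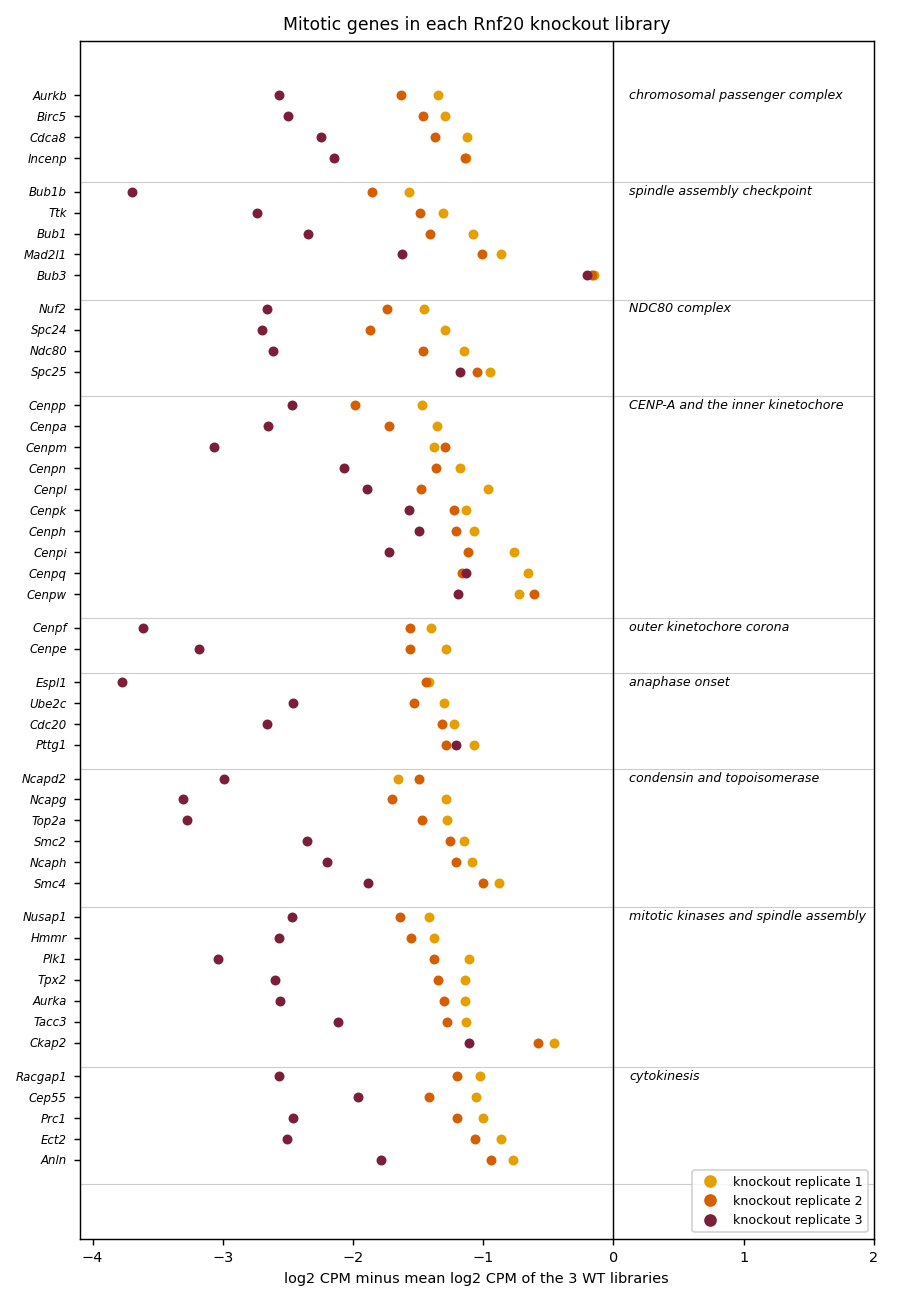
Each point is a knockout library of a gene, plotted as its log2 CPM minus the mean log2 CPM of the 3 WT libraries, with genes ordered within the 9 structural groups. Points left of the vertical line are below WT, which all 3 libraries are for all 47 genes, and knockout replicate 3 is farthest left in 45 of them, with Bub3 close to the line.

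The plot of each knockout library against WT shows how far the knockout libraries stood from each other. The median difference from the WT mean was -1.14 in knockout replicate 1, -1.36 in replicate 2 and -2.47 in replicate 3 on the log2 scale. Knockout replicate 3 was the lowest of all 6 libraries in 45 of the 47 genes, against 34% of all genes tested, and Cenpq and Pttg1 were lowest in knockout replicate 2. Knockout replicate 2 lay below replicate 1 in 44 genes, against 50.4% of all genes. Without knockout replicate 3 the median log2 fold change was -1.24 and all 47 genes fell (adjusted p up to 0.0406, edgeR), in a fit in which 24.2% of all genes did.

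The study called genes at an adjusted p under 0.01, a change of more than 2-fold and an FPKM above 1. With these thresholds applied to the edgeR fit used here, 19 of the 47 genes passed as lower, against 2.08% of all genes tested, and 0 as higher, against 1.5%. The study's test is not named. In the groups below, passing the thresholds of the study refers to this edgeR fit and not to the study's own list of genes. How many passed varied with the test and with single libraries. It was 42 with DESeq2 and 43 with edgeR's exact test, against 4.22% and 4.23% of all genes. With RLE factors, plain library totals, a limit of 1 count, a limit of 1 CPM and the length correction it was 19, 23, 21, 19 and 24, against 2.05%, 2.49%, 1.68%, 2.2% and 2.15%. Leaving out knockout replicate 3 gave 38, against 3.63% of all genes, leaving out knockout replicate 1 gave 2, against 0.362%, and leaving out knockout replicate 2 gave 0, against 0.221%. Leaving out WT replicate 1, 2 or 3 gave 0 each time, against 0.00735%, 0.00736% and 0.00736%.

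At an adjusted p under 0.05 (edgeR unless another tool is named) the counts were 46, 47, 46, 46, 46, 46 and 46 with RLE factors, library totals, DESeq2, the exact test, a limit of 1 count, a limit of 1 CPM and the length correction, against 16.1%, 20.1%, 18.6%, 16.8%, 12.2%, 17.3% and 16.7% of all genes. Without knockout replicate 1, 2 or 3 they were 45, 41 and 47, against 13.4%, 11.6% and 24.2%. Without WT replicate 1, 2 or 3 they were 27, 23 and 23, against 7.31%, 6.13% and 5.17%. In all 6 of these fits 22 of the 47 genes were lower. Over all genes that joint count was not made, but it can be no larger than the 5.17% lower without WT replicate 3. A term for the presence of Ddx3y counts beside the genotype leaves knockout replicate 2 as the only library that separates genotype from that gene. With it, 0 of the 47 genes passed (adjusted p of 0.0589 to 0.369), where 0.217% of all genes were lower at that adjusted threshold. At an unadjusted p under 0.05, 34 of the 47 were lower. The share of all genes at that unadjusted limit was not counted, so the 34 cannot be set against a background. All 47 log2 fold changes were still negative in that fit, with a median of -1.38.

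**Figure D2:**
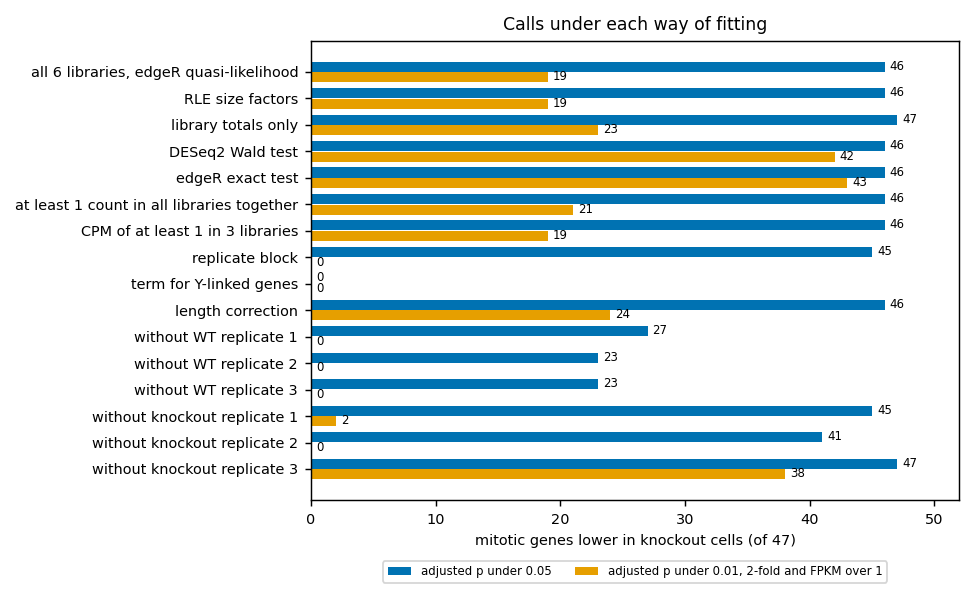
Bars give the number of the 47 genes lower in knockout cells under each way of fitting, at an adjusted p under 0.05 (blue) and at the thresholds of the study (orange). Blue bars stay between 41 and 47 except in the fits without a WT replicate (23 to 27) and with the term for Y-linked genes (0), while orange bars range from 0 to 43.

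The chromosomal passenger complex corrects faulty attachments at the centromere and later acts at the midzone. All 4 of its genes fell, with a median log2 fold change of -1.59, and 3 of them passed the thresholds of the study. Aurkb, the kinase of the complex, had the lowest value. It stood at 44.1, 42.4 and 42.3 CPM in WT replicates 1 to 3 and at 16.8, 13.8 and 7.14 CPM in knockout replicates 1 to 3, a log2 fold change of -1.77 (SE 0.283, adjusted p = 0.00739, edgeR). Incenp, the scaffold that binds and activates the kinase, had the highest value of the group, with 91.8, 89.6 and 93.2 CPM in WT and 41.6, 41.6 and 20.6 CPM in knockout cells. In both genes knockout replicates 1 and 2 were close together and replicate 3 stood apart below them. The log2 fold change of Incenp was -1.40 (SE 0.256, adjusted p = 0.0102), and -1.14 without knockout replicate 3. Birc5 (survivin) and Cdca8 (borealin), which place the complex on chromatin, fell to 31.4% and 34.99% of WT. All 4 stayed under an adjusted p of 0.05 whichever library was left out.

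The spindle assembly checkpoint held both the lowest and the highest value of all 47 genes. Of its 5 genes 4 fell, and the median was -1.53. Bub1b encodes BUBR1, a subunit of the mitotic checkpoint complex that inhibits CDC20. It had 107, 104 and 111 CPM in WT and 36.0, 29.6 and 8.19 CPM in knockout cells, which is 23.0% of WT on average, and its log2 fold change was -2.12 (SE 0.475, adjusted p = 0.0181, edgeR). Knockout replicate 3 was far below the other knockout libraries, and without it the log2 fold change was -1.71 (SE 0.0862, adjusted p = 8.46e-07). Without WT replicate 1, 2 or 3 the adjusted p of Bub1b was 0.0584, 0.0627 and 0.0684. Bub3, the WD-repeat partner that recruits BUB1 and BUBR1 to kinetochores, had 95.6, 94.8 and 98.6 CPM in WT and 86.8, 86.0 and 83.7 CPM in knockout cells. The groups did not overlap, but the difference was small, with a log2 fold change of -0.17 (SE 0.0621, adjusted p = 0.0738), and Bub3 was the 1 gene of the 47 that did not pass 0.05. Leaving out knockout replicate 3 gave -0.15 (adjusted p = 0.0406), and over the other fits that left out a library its adjusted p was 0.137 to 0.201.

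The other checkpoint genes lay between these values. Ttk, the kinase that starts checkpoint signalling, had a log2 fold change of -1.73 (SE 0.335, adjusted p = 0.0120), and Bub1, its kinase partner at the outer kinetochore, of -1.53 (SE 0.292, adjusted p = 0.0116). Mad2l1, which encodes the MAD2 protein that binds CDC20, fell from 47.8, 44.3 and 41.4 CPM to 24.4, 22.1 and 14.3 CPM, a log2 fold change of -1.13 (SE 0.194, adjusted p = 0.00855). It was the only gene of this group past the thresholds of the study. Without WT replicate 3 Ttk and Bub1 did not pass an adjusted p of 0.05, nor did Ttk without WT replicate 2, and in that fit without WT replicate 3 only Mad2l1 passed of the 5 genes.

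The NDC80 complex is the main coupler of kinetochores to microtubules and is built from 4 subunits, NDC80 and NUF2 at the microtubule end and SPC24 and SPC25 at the inner end. All 4 genes fell, with a median of -1.74. Nuf2 went from 34.6, 31.8 and 32.9 CPM in WT to 12.03, 9.83 and 5.14 CPM in knockout cells, for a log2 fold change of -1.88 (SE 0.281, adjusted p = 0.00632, edgeR). Spc25 had the highest value of the complex, with 19.3, 19.98 and 18.9 CPM in WT and 10.02, 9.35 and 8.53 CPM in knockout cells, for a log2 fold change of -1.06 (SE 0.103) and the lowest adjusted p of the 47 genes (0.00276). Its knockout libraries lay close together, and those of Nuf2, Ndc80 and Spc24 did not. Spc24 fell to 27.6% and Ndc80 to 32.3% of WT. Transcripts of Spc24 share stretches of at least 100 bases at 97% identity or more with those of many other genes, so its counts may hold reads of repeats. Without any 1 of the WT replicates Ndc80 did not pass 0.05, while Nuf2, Spc24 and Spc25 did.

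CENP-A and the inner kinetochore, the layer that stays on the centromere through the cell cycle, were read in 10 genes. All 10 fell, 6 passed the thresholds of the study and the median was -1.37. Cenpa, the histone variant itself, had 44.5, 44.6 and 44.8 CPM in WT and 17.4, 13.4 and 7.001 CPM in knockout cells, for a log2 fold change of -1.82 (SE 0.295, adjusted p = 0.00757, edgeR). The lowest value was that of Cenpp, with 6.18, 7.93 and 7.12 CPM in WT and 2.48, 1.71 and 1.19 CPM in knockout cells, for a log2 fold change of -1.98 (SE 0.290, adjusted p = 0.00605). Cenpp overlaps the exons of Ippk on the other strand over 317 bases, and it is not stated whether the counting used the strand. At the other end, Cenpw, a histone-fold subunit, had 6.85, 6.27 and 5.36 CPM in WT and 3.68, 3.99 and 2.62 CPM in knockout cells. Its log2 fold change was -0.84 (SE 0.219, adjusted p = 0.0282), and its adjusted p was 0.0530 without knockout replicate 1 and 0.0704 to 0.100 without a WT replicate. Cenpw transcripts, too, share stretches with several other genes. Cenpp, Cenpk, Cenpw, Cenpm and Cenph had mean CPM under 10 in WT cells, so their values rest on fewer reads than those of the other genes of the list.

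The medians of this group were -1.10, -1.26 and -1.80 in knockout replicates 1 to 3, against -1.14, -1.36 and -2.47 over all 47 genes. Cenpq, part of the arm that binds the mitotic kinase PLK1, had 6.73, 4.70 and 4.81 CPM in the knockout libraries, so that replicates 2 and 3 were level. In Cenpm, with 2.82, 2.99 and 0.810 CPM, and in Cenpa replicate 3 lay far below the others. Whether the groups differ in this respect was not tested.

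The outer kinetochore corona was read in the very large proteins CENP-E, a kinesin that moves chromosomes to the spindle equator, and CENP-F, a coiled-coil protein of the corona. Both genes fell, by the largest group median of -1.86, and neither passed the thresholds of the study in the edgeR fit. Cenpf had 110, 107 and 101 CPM in WT and 40.05, 35.8 and 8.57 CPM in knockout cells, for a log2 fold change of -1.91 (SE 0.499, adjusted p = 0.0286, edgeR). Cenpe had 97.7, 99.8 and 96.0 CPM in WT and 40.1, 33.1 and 10.7 CPM in knockout cells, for a log2 fold change of -1.81 (SE 0.426, adjusted p = 0.0214). In both genes the knockout libraries fell into 2 levels, with replicate 3 far below the others. Without knockout replicate 3 the log2 fold changes were -1.48 and -1.42 (adjusted p = 7.91e-07 and 1.44e-06). Without a WT replicate the adjusted p was 0.0833 to 0.0873 for Cenpf and 0.0663 to 0.0733 for Cenpe, and without knockout replicate 2 it was 0.0509 for Cenpf.

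Anaphase onset was read in the APC/C activator Cdc20, its ubiquitin-conjugating enzyme Ube2c, securin (Pttg1) and separase (Espl1). All 4 fell, with a median of -1.65. Espl1 had 54.4, 49.5 and 56.4 CPM in WT and 19.9, 19.6 and 3.81 CPM in knockout cells, for a log2 fold change of -1.89 with the largest standard error of the 47 genes (SE 0.529, adjusted p = 0.0354, edgeR). It was -1.44 without knockout replicate 3 (adjusted p = 1.18e-06), and the adjusted p was 0.0937 to 0.107 without a WT replicate and 0.0524 without knockout replicate 2. Pttg1, which holds separase inactive, had 25.1, 18.0 and 19.1 CPM in WT and 9.74, 8.36 and 8.81 CPM in knockout cells, for a log2 fold change of -1.21 (SE 0.156, adjusted p = 0.00438). Knockout replicate 3 thus lay between the other knockout libraries for securin and far below them for separase. Ube2c and Cdc20 fell to 31.0% and 32.8% of WT, Ube2c with an adjusted p of 0.00739 and Cdc20 with 0.0162, which became 0.0549 to 0.0665 without a WT replicate. Ube2c overlaps the exons of Tnnc2 on the other strand over 151 bases.

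**Figure D3:**
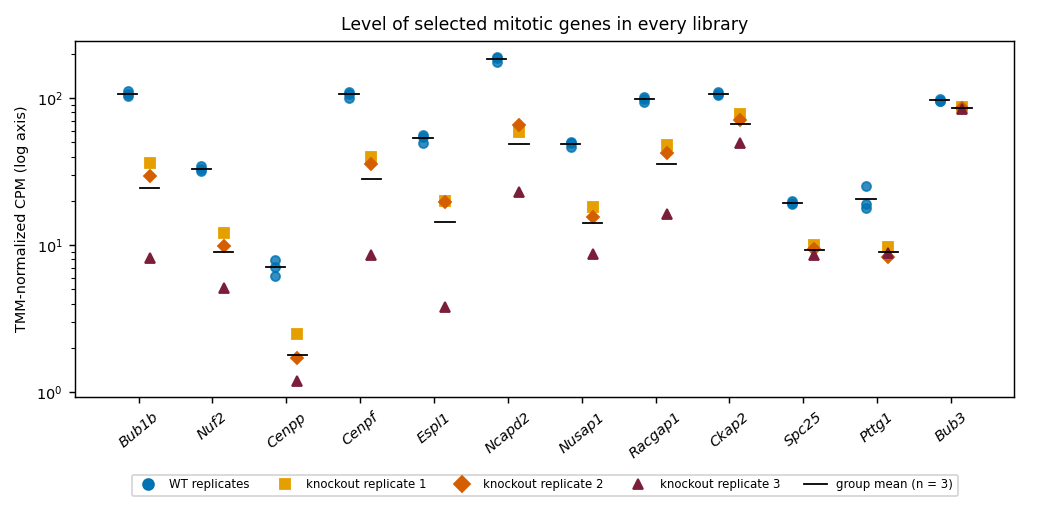
TMM-normalized CPM on a log axis for 12 genes, with WT replicates as circles, knockout replicates 1, 2 and 3 as squares, diamonds and triangles, and the mean of each group (n = 3) as a line. The triangles of Bub1b, Cenpf and Espl1 lie well below the other knockout symbols, those of Spc25 and Pttg1 lie beside them, and for Bub3 all knockout symbols lie just under the WT circles.

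Condensin I and topoisomerase II shape the mitotic chromosome. All 6 genes fell, with a median of -1.64, and none passed the thresholds of the study in the edgeR fit. Their adjusted p-values were 0.0107 to 0.0279. Ncapd2, a HEAT-repeat subunit of condensin I, had 187, 175 and 190 CPM in WT and 58.5, 65.2 and 23.1 CPM in knockout cells, for a log2 fold change of -1.91 (SE 0.355, adjusted p = 0.0107, edgeR). Smc4, an ATPase subunit that condensin I and II share, had the highest value, with 197, 202 and 193 CPM in WT and 107, 98.5 and 53.4 CPM in knockout cells. Its log2 fold change was -1.19 (SE 0.243, adjusted p = 0.0140), with an adjusted p of 0.0504 to 0.0570 without a WT replicate. Its partner Smc2 fell to 35.5% of WT, and the subunits Ncaph and Ncapg, which belong to condensin I alone, fell to 37.3% and 27.1%. Top2a, which removes the links between DNA strands, went from 343, 340 and 331 CPM to 139, 122 and 34.7 CPM, a log2 fold change of -1.78 (SE 0.459, adjusted p = 0.0279). Without a WT replicate 3, 2 and 2 of the 6 genes were lower, and 5 were without knockout replicate 2. Top2a was the gene lost there (adjusted p = 0.0509), and its adjusted p was 0.0801 to 0.0860 without a WT replicate. Ncapg overlaps Lcorl on the other strand over 701 bases.

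The mitotic kinases and spindle assembly factors were read in 7 genes. All 7 fell, with a median of -1.57, and 3 passed the thresholds of the study. Nusap1, which bundles microtubules near chromosomes, had 46.3, 50.2 and 49.7 CPM in WT and 18.2, 15.5 and 8.72 CPM in knockout cells, for a log2 fold change of -1.78 (SE 0.250, adjusted p = 0.00546, edgeR). Plk1, a master kinase of mitotic entry and exit, had 70.9, 54.7 and 65.9 CPM in WT and 29.4, 24.4 and 7.67 CPM in knockout cells, for a log2 fold change of -1.64 (SE 0.437, adjusted p = 0.0305). Aurka, the kinase of the spindle poles, and its activator Tpx2 moved by similar amounts, to 34.1% and 33.7% of WT, and Hmmr and Tacc3, which act on spindle microtubules, to 29.7% and 36.5%. Ckap2, a microtubule-binding protein of the spindle, fell least of this group, from 104, 110 and 106 CPM to 77.8, 71.4 and 49.5 CPM, which is 62.0% of WT. Its log2 fold change was -0.69 (SE 0.163, adjusted p = 0.0214), -0.52 without knockout replicate 3, with an adjusted p of 0.0659 to 0.0780 without a WT replicate. Plk1 did not pass 0.05 without a WT replicate or without knockout replicate 2, and Aurka and Tpx2 did not pass without a WT replicate. Exons of Nusap1, Plk1 and Tacc3 overlap those of Oip5, Gm44985 and Tmem129 on the other strand over 172, 158 and 289 bases.

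Cytokinesis was read in 5 genes, which all fell with a median of -1.43. Racgap1, the subunit of centralspindlin that activates the furrow, had 102, 93.5 and 97.8 CPM in WT and 48.1, 42.4 and 16.4 CPM in knockout cells, for a log2 fold change of -1.46 (SE 0.359, adjusted p = 0.0244, edgeR). It shares 488 bases at 98.2% identity with a processed pseudogene, so a part of its reads could be split. Anln, the anillin scaffold of the contractile ring, had 166, 160 and 158 CPM in WT and 94.4, 83.8 and 46.6 CPM in knockout cells, for a log2 fold change of -1.10 (SE 0.242, adjusted p = 0.0171). Ect2, which acts at the furrow, had a log2 fold change of -1.32 (adjusted p = 0.0364). Prc1, the bundler of midzone microtubules, fell to 37.0% and Cep55, which recruits the abscission machinery, to 36.7% of WT. Cep55 was the 1 gene of the group past the thresholds of the study and the only 1 of the 5 that was lower in every fit that left out a WT replicate. In those fits the adjusted p was 0.0748 to 0.0809 for Racgap1, 0.0607 to 0.0647 for Anln, 0.0671 to 0.0756 for Prc1 and 0.0969 to 0.105 for Ect2. Ect2 did not pass without knockout replicate 2 either (adjusted p = 0.0603). Prc1 overlaps Rccd1 on the other strand over 670 bases.

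The distance of knockout replicate 3 from the mean of knockout replicates 1 and 2 was read against gene length, since in all genes tested that distance became more negative with length (Spearman -0.27, across 13386 genes, which are not independent replicates). Across the 47 genes the value was -0.28. In the 16 shortest, 15 middle and 16 longest genes of the list the median distance was -1.02, -1.10 and -1.05 on the log2 scale. In the other genes tested in the same length ranges it was 0.13, 0.021 and -0.11. The median of the list's genes was thus near -1 in each length range. A correction for gene length in each library, chosen after seeing the data, left 46 genes lower at an adjusted p under 0.05 and a median of -1.51.

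Levels per transcript length were compared with the deposited FPKM values. In WT cells Ube2c had the highest FPKM, at 83.3 ± 0.870 (SD, n = 3), followed by Top2a at 60.7 ± 1.41 and Cdc20 at 58.0 ± 5.24, and the lowest was Cenpk at 6.00 ± 0.462. In knockout cells the order at the top changed. Bub3, the fifth in WT cells at 52.2 ± 2.13, was highest at 46.5 ± 0.994, followed by Anln at 31.2 ± 4.04 and Ckap2 at 26.9 ± 6.66, while Ube2c stood at 25.05 ± 9.16, which overlaps Ckap2 and Anln within 1 SD. The log2 ratio of mean FPKM was within 0.2 of the log2 fold change from counts in 45 of 47 genes, with Anln (-0.79) and Spc24 (-2.11) as the exceptions, and its median was -1.57.

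Within complexes the FPKM levels of the subunits were set side by side. In the NDC80 complex the highest subunit had 2.19 times the FPKM of the lowest in WT cells and 2.18 times in knockout cells. Spc24 led in WT cells at 25.3 ± 0.897 and Spc25 in knockout cells at 8.29 ± 0.797, against 5.88 ± 2.60 for Spc24. In the chromosomal passenger complex the ratio was 2.30 in WT and 2.22 in knockout cells, with Birc5 first in both. In the checkpoint group it went from 4.90 to 14.4, between Bub3 first and Ttk last, and Bub1b, second in WT at 26.6 ± 1.03, stood in knockout cells at 6.19 ± 3.35, below Mad2l1 at 9.28 ± 2.48. In condensin and topoisomerase it went from 4.34 to 5.64, and Smc4 rather than Top2a was first in knockout cells, by 21.8 ± 7.75 against 18.0 ± 10.4, which overlap. These ratios are descriptions of means and were not tested.

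**Figure D4:**
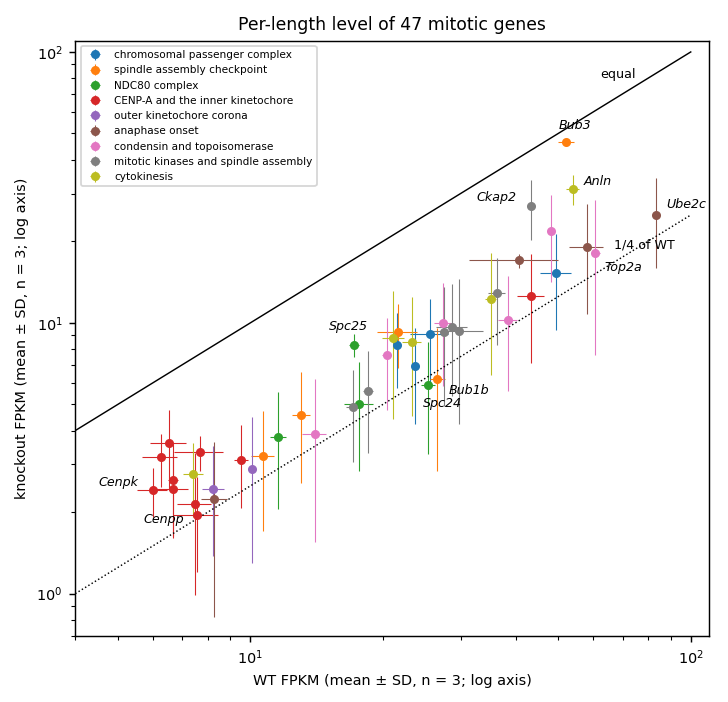
Mean FPKM in knockout cells against WT cells on log axes for the 47 genes, coloured by group, with SD bars (n = 3 each), a solid line at equal levels and a dotted line at 1/4 of WT. Bub3 lies nearest to the solid line, and Bub1b and Spc24 lie just under the dotted line.

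The rest of the mitotic machinery was read in 99 further genes of 9 lists, of which 96 were tested. Spag5, Mybl2 and Foxm1 were not analysed here. Of the 96, 49 fell and 10 rose at an adjusted p under 0.05 (edgeR), against 16.6% and 16.4% of all genes, and the median was -0.40. Without knockout replicate 3, 60 fell and 13 rose. Without knockout replicate 1 or 2, 44 and 39 fell and 9 rose in each. Without WT replicate 1, 2 or 3, 26, 24 and 21 fell and 3, 4 and 3 rose. In these 6 fits, in the same order, 24.2%, 13.4%, 11.6%, 7.31%, 6.13% and 5.17% of all genes were lower. Higher were 23.9%, 14.2%, 12.4%, 7.01%, 5.75% and 5.11% of all genes. With the term for Ddx3y, 0 passed in either direction, where 0.217% of all genes were lower and 0.598% higher.

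The lists of the kinetochore, its checkpoint and condensin II had the lowest medians. Over all genes 16.6% fell, and 7.31%, 6.13% and 5.17% did without WT replicate 1, 2 or 3. Of 9 genes of the MIS12, KNL1 and SKA complexes, which join NDC80 to the centromere and hold on to microtubule ends, 7 fell with a median of -1.46. Ska1 was lowest, with 8.61, 5.98 and 5.84 CPM in WT and 2.1002, 1.42 and 0.905 CPM in knockout cells, for a log2 fold change of -2.20 (SE 0.341, adjusted p = 0.00681). Mis12 had 34.0, 40.6 and 35.7 CPM in WT and 34.1, 38.3 and 35.1 CPM in knockout cells, with overlapping groups and a log2 fold change of -0.038 (SE 0.0965, adjusted p = 0.783). Of 11 other genes of the inner kinetochore and CENP-A loading 8 fell, with a median of -1.05. Oip5, a subunit of the MIS18 complex that licenses CENP-A loading, was lowest at -2.04 (SE 0.222, adjusted p = 0.00326), and Cenpb, the protein that binds centromeric DNA, was highest at -0.14 (SE 0.1203, adjusted p = 0.407). Of 7 genes of the RZZ complex and other checkpoint factors 5 fell, from Kntc1 (ROD) at -1.89 (SE 0.463, adjusted p = 0.0241) to Mad2l1bp, a checkpoint silencer, at 0.16 (SE 0.0959, adjusted p = 0.225). Of the 3 genes particular to condensin II all fell, from Ncapg2 at -1.54 (SE 0.265, adjusted p = 0.00865) to Ncaph2 at -0.67 (SE 0.0972, adjusted p = 0.00585). In these 4 lists, without WT replicate 1, 2 or 3 the counts were 6, 5 and 5, then 5, 5 and 3, then 2, 2 and 2, and then 2, 2 and 2, and Kntc1 was among those that did not pass (adjusted p of 0.0686 to 0.0829). Of the inner kinetochore list, 5 were lower without knockout replicate 1, against 13.4% of all genes.

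The medians of the APC/C, cohesin, spindle pole and MuvB lists lay nearer to 0. Over all genes 16.6% fell and 16.4% rose, and 7.31%, 6.13% and 5.17% fell without WT replicate 1, 2 or 3. Of 17 genes of the APC/C core and its other regulators 7 fell, with a median of -0.26, from Fbxo5 (EMI1, an inhibitor of the APC/C) at -1.55 (SE 0.220, adjusted p = 0.00565) to the core subunit Anapc10 at 0.19 (SE 0.107, adjusted p = 0.203). Of 14 genes of cohesin and its regulators 6 fell and 1 rose. Sgo1 (shugoshin, which protects centromeric cohesin) was lowest at -1.78 (SE 0.209, adjusted p = 0.00360), and the acetyltransferase gene Esco1 rose by 0.38 (SE 0.0864, adjusted p = 0.0190). Of 14 genes of spindle poles and augmin 9 fell and 1 rose, from Ckap2l at -1.82 (SE 0.281, adjusted p = 0.00670) to Kansl1, which rose by 0.43 (SE 0.0642, adjusted p = 0.00641). The MuvB complex is known to act through CHR elements, and its binding to the stretches above was not measured. Of 8 genes of the complex and its partners 3 fell, from Rbl1 (p107) at -1.28 (SE 0.208, adjusted p = 0.00763) to Lin52 at 0.30 (SE 0.168, adjusted p = 0.212). Without WT replicate 1, 2 or 3, 3, 2 and 2 genes of the APC/C list, 2, 2 and 2 of cohesin, 4, 4 and 3 of spindle poles and 1, 1 and 1 of MuvB were lower, and Esco1 did not pass in any of the 3 fits. Without knockout replicate 2, 1 gene of the MuvB list was lower, against 11.6% of all genes, and without knockout replicate 3, 6 were, against 24.2%.

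The list of abscission and the contractile ring differed in direction. Of its 13 genes 8 rose and 1 fell, against 16.4% and 16.6% of all genes, with a median of 0.38. In contrast, all 5 cytokinesis genes of the main list fell. Cit, the citron kinase of the midbody, was the gene that fell, with 33.0, 28.5 and 32.5 CPM in WT and 14.8, 9.59 and 6.29 CPM in knockout cells, for a log2 fold change of -1.62 (SE 0.286, adjusted p = 0.00937). Rock2, a kinase that drives myosin contraction, had 251, 259 and 249 CPM in WT and 395, 352 and 396 CPM in knockout cells, with no overlap, a log2 fold change of 0.59 (SE 0.0745, adjusted p = 0.00421). The actin-based genes of this list are known to serve adhesion and shape in fibroblasts outside mitosis too. Whether that bears on the direction of the list was not tested. Without WT replicate 1, 2 or 3, 2, 3 and 2 of the 13 rose, against 7.01%, 5.75% and 5.11% of all genes. Without knockout replicate 1, 2 or 3, 7, 7 and 9 rose, against 14.2%, 12.4% and 23.9%.

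**Figure D5:**
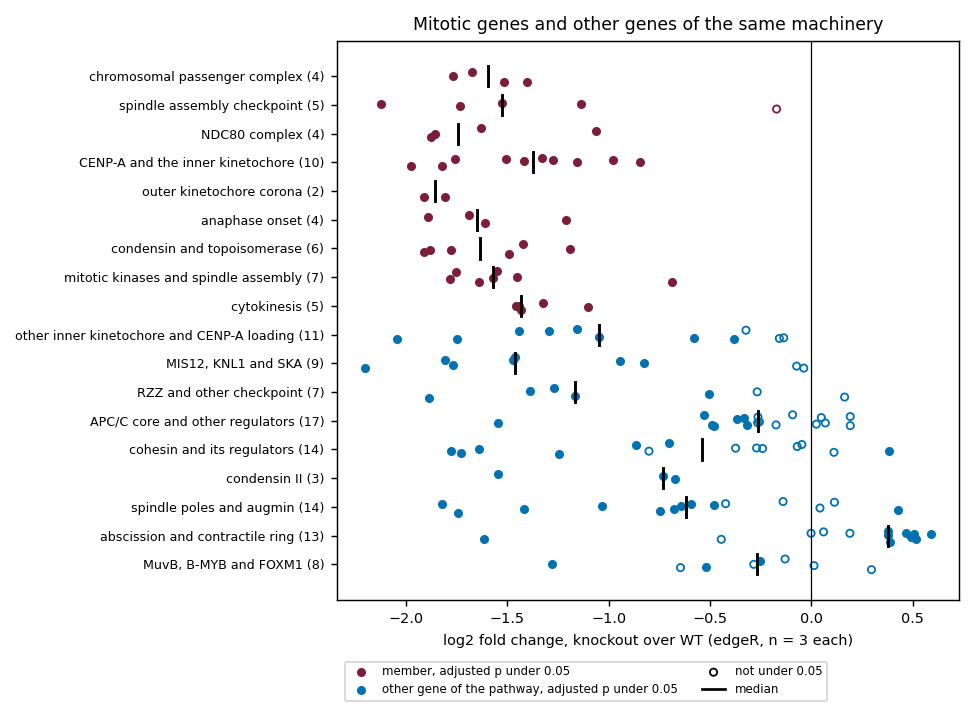
Log2 fold change of knockout over WT for each gene of the 9 groups (dark red) and of the 9 further lists (blue), with the number of genes in brackets, filled points for an adjusted p under 0.05 and a bar at the median. Medians of the main groups lie between -1.86 and -1.37, and those of the further lists between -1.46 for MIS12, KNL1 and SKA and 0.38 for abscission and the contractile ring.

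Markers of the cells that these cultures could hold were summed in each library beside these results. Over all genes 16.6% fell and 16.4% rose. Fibroblast genes (10 of 10 tested, of which 2, Pdgfra and Thy1, fell) summed to 30584 to 33510 CPM in WT and to 32418, 40245 and 21999 CPM in knockout replicates 1 to 3, so the defining markers of MEF were present in every library. Macrophage genes (8 of 8 tested, none past 0.05) summed to 47.4 to 95.5 CPM in WT and to 79.0, 50.9 and 256 CPM in knockout cells, highest in knockout replicate 3, the library in which the mitotic genes were lowest. Genes of simple epithelium (6 of 7 tested) summed to 57.1 to 61.2 CPM in WT and to 77.9, 54.2 and 22.2 CPM, with Cldn3 lower and Krt19 higher in knockout cells. Without WT replicate 1, 2 or 3, only 1 fibroblast gene fell and no epithelial gene rose. In those fits 7.31%, 6.13% and 5.17% of all genes fell, and 7.01%, 5.75% and 5.11% rose. Endothelial genes (6 listed, 2 tested) summed to 48.6 to 59.0 CPM in WT and to 67.3, 54.0 and 32.3 CPM, and 4 of the 6 were at 0 in at least 1 library. Skeletal muscle genes (4 of 6 in the table) summed to 7.08 to 8.87 CPM in WT and to 12.5, 7.60 and 4.43 CPM, and markers of pluripotent cells (6 of 7 in the table) to 0.998 to 2.33 CPM in WT and to 0.907, 0.855 and 0.476 CPM, with 5 of the 6 at 0 in at least 1 library. The part of these cells, and of the fibroblast sum that is lowest in knockout replicate 3, in the mitotic values was not tested.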

How the data were processed

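RNA was sequenced from 3 WT and 3 Rnf20 knockout cultures, grouped by the sample labels, on day 3 of reprogramming. Per the methods, the authors prepared stranded mRNA libraries, used HISAT2 2.1.0 for alignment of the read pairs to GRCm38/mm10 and computed FPKM with Cufflinks 2.1.1. The authors deposited raw counts per gene for 16982 genes, with gene lengths, and FPKM values for 12633 genes. The counting program and its use of strand are not given in the sources used here. The deposited log2 fold changes and adjusted p-values of the authors were not used, and copies of the counts beside the FPKM values differed from the count table in 0 values.

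Counts were normalized by TMM and filtered with filterByExpr in edgeR 4.0.16 (R 4.3.3), and genotypes were compared over the 13386 genes left by the quasi-likelihood test with Benjamini-Hochberg adjustment. "Fell" and "rose" mean an adjusted p under 0.05. The study's thresholds are an adjusted p under 0.01, a log2 fold change beyond 1 and an FPKM over 1, read here as the mean of either genotype. Standard errors (SE) are the log2 fold change over the root of the F statistic. CPM uses the normalized library sizes, and log2 CPM a prior count of 2. The floor of 3 counts covers counting error only. The common dispersion was 0.0353.

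The members, gene lists and tests were chosen with earlier results of these data known. The genes named are those with the lowest and highest log2 fold change in each group or list, each member that did not fall, and Rnf20, and other members are named for completeness. Promoters were shown for up to 8 members with a CHR and the lowest log2 fold changes, and for the member with the highest one. Gene bounds and exons came from GENCODE M21, and promoters and their start sites from RefSeq. Transcripts of the members were compared with all other transcripts for shared stretches of 100 bases at 97% identity.

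Alternatives were RLE factors, library totals, edgeR's exact test, DESeq2 1.42.0, other filters and thresholds, a replicate block, a term for Ddx3y and each library left out. A length correction (loess, span 0.5) was chosen after seeing the data. The quasi-likelihood test was tried on counts simulated with the same dispersion in both genotypes and with no library that stood apart. It called 64.6% of the genes changed by a log2 fold of 1 and 94.9% of those changed by 2. Of the unchanged genes it called 12 and 15. Knockout replicate 3 does stand apart in the data, so these shares may not hold for them.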

Additional observations from a re-analysis of the deposited data

How the results depend on the processing

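The number of genes past the study's thresholds went from 19 to 42 with DESeq2, 43 with edgeR's exact test, and 43 at an adjusted p under 0.05 with the fold and FPKM limits kept. With the term for Ddx3y it was 0, where 0 of all genes passed as lower. The share of all genes was not counted for the limit of 0.05 with the fold and FPKM limits, nor without the FPKM limit. Leaving out a library gave 0 to 38. With RLE factors, library totals, other filters on counts, no FPKM limit or the length correction it was 19 to 24. The number lower at an adjusted p under 0.05, 46 as reported, was 45 to 47 under the alternatives that kept all libraries, except for 0 with the term for Ddx3y, and 23 to 47 when a library was left out. The median log2 fold change was -1.60 to -1.38 with all libraries and -1.80 to -1.24 when a library was left out. No log2 fold change of the 47 genes changed sign. The cause of the lower counts without a WT replicate was not tested.

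The replicate number as a block gave 45 genes lower at an adjusted p under 0.05 (Espl1 had 0.0538) and 0 past the study's thresholds, where 0 of all genes passed, and 11.1% of all genes were lower at 0.05. Of the APC/C list 3 genes were lower with the block. Deviations of same-numbered WT and knockout libraries from their group means correlated at -0.066, 0.037 and 0.011, which gave no sign of pairing by number. Knockout replicate 3, which stood apart, enters the mean behind every knockout deviation, so these values cannot exclude pairing. Only WT replicate 3 correlated best with its own number. Genes under 10 CPM in WT cells, 5 of them among the 47, carry more counting error than the others of that list.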
